A study of Danio rerio with 8 samples.

Results

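The miR-184 and miR-204 genes were examined in small RNA libraries of zebrafish (Danio rerio, wild type) larvae. Members were the rows of the count table whose symbol starts with dre-mir-184 or dre-mir-204. They were 4 of the 434 miRNA genes and of the 32520 genes in the table: dre-mir-184-1 (ENSDARG00000081763), dre-mir-184-2 (ENSDARG00000083498), dre-mir-204-1 (ENSDARG00000081105) and dre-mir-204-2 (ENSDARG00000081512). All 4 passed the filter on low counts. Each library held total RNA of a pool of 50 larvae at 7 days postfertilization (dpf), the progeny of AB males aged 12 months crossed with undisturbed females. The S- group (4 libraries) came from undisturbed males and the S+ group (4 libraries) from males put through chronic stress for 21 days. The larvae themselves were not stressed in either group. The libraries held between 3492945 and 4943297 counts, of which miRNA genes took 96.2% to 97.9%. No pair of libraries held identical counts.

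miRNAs are short RNAs that pair through their seed with messenger RNAs and lower their translation or stability. miR-184 is known in vertebrates from the lens and the corneal epithelium, and in humans a change in its seed causes hereditary disease of the cornea and lens. miR-204 is known from the retinal pigment epithelium, the lens and the ciliary body. In medaka it acts in lens and retina formation through the transcription factor Meis2, and in humans a change in its seed causes retinal dystrophy with coloboma. Mammalian miR-204 lies within TRPM3, a cation channel gene, and its close relative miR-211 within TRPM1, a channel gene of pigment cells and retinal bipolar cells. Neither miRNA is found in the eye alone. The libraries were made from whole larvae, so fewer cells of a type and less RNA per cell cannot be told apart.

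In the RefSeq annotation of assembly GRCz12tu, used for names and neighbours only, dre-mir-204-1 lay within trpm3 on chromosome 5 and dre-mir-204-2 within trpm1a on chromosome 7. A gene identifier table pairs the latter with the name MIR211. A further copy that RefSeq annotates, dre-mir-204-3, lies within trpm1b on chromosome 25. No row of the table was matched to it and it was not analysed here. Its reads may be counted under another name or with the other copies, so the sums and copy shares of miR-204 are those of dre-mir-204-1 and dre-mir-204-2 as listed. The copy dre-mir-184-2 lay within no protein-coding gene, between si:ch211-107o10.3 and wdr76 on chromosome 7, with 30 protein-coding genes between it and dre-mir-204-2. The copy dre-mir-184-1 lay on chromosome 18 between ankrd34c and rasgrf1. The host genes left almost no fragments in these libraries. Over all 8 libraries no library held more than 2 counts of trpm3, trpm1a or trpm1b, so no value of a host could be set beside its miRNA.

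miR-204 was an abundant miRNA of these larvae and miR-184 a moderately abundant one. By mean CPM (counts scaled to a library of one common size with TMM factors), dre-mir-204-2 ranked 19 among the 319 miRNA genes with a count, dre-mir-204-1 ranked 39, dre-mir-184-2 ranked 72 and dre-mir-184-1 ranked 267. Counts of miRNA copies whose symbols start with dre- and share a name up to the copy number were then summed. Other miRNA genes stayed as single rows, also where they are copies of a summed miRNA. Among these 235 rows with a count, miR-204 ranked 10 and miR-184 ranked 64. Summed miR-204 made up 1.69% to 3.16% of all counts of a library and summed miR-184 0.158% to 0.244%. The 4 genes kept the order dre-mir-204-2, dre-mir-204-1, dre-mir-184-2, dre-mir-184-1 in each library. Divided by the length of the RefSeq hairpin the order of the mean CPM was the same, at 123 CPM per base for dre-mir-204-2, 73.2 for dre-mir-204-1, 24.1 for dre-mir-184-2 and 0.0598 for dre-mir-184-1. Reads of a miRNA need not cover its hairpin, so this gives no separate support for the order.

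**Figure D1:**
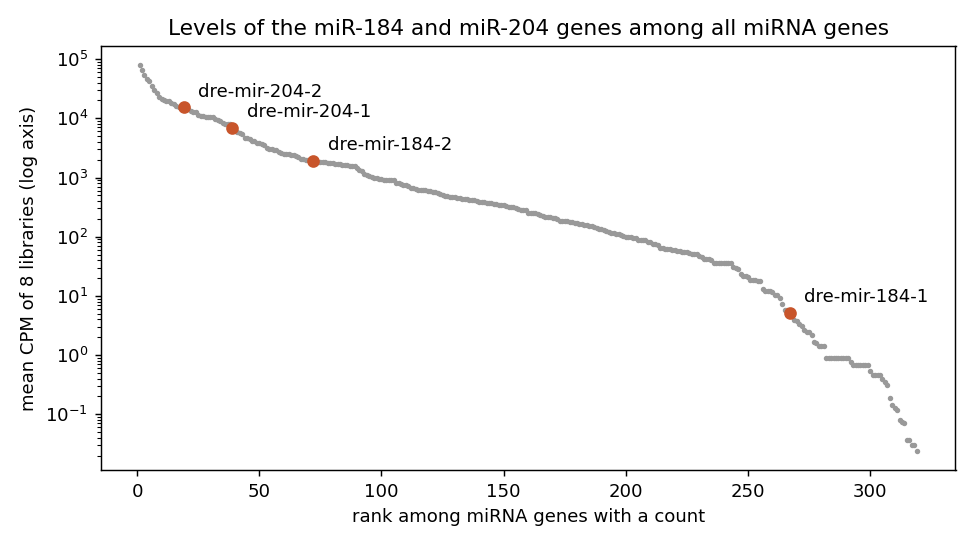
Mean CPM of 8 libraries (log axis) against rank for the 319 miRNA genes with a count; each point is a gene, and the 4 miR-184 and miR-204 genes are in red. The miR-204 copies and dre-mir-184-2 sit in the upper part of the curve at ranks 19, 39 and 72, while dre-mir-184-1 sits at rank 267.

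The question of the comparison was whether stress of the father changed the small RNAs of the larvae, and none of the 4 genes was called. The test was limma after voom, and a call needed both a Benjamini-Hochberg adjusted p under 0.05 and a log2 fold change beyond 0.58 in either direction. Over all 651 genes tested 2 were called (0.307%), 1 higher (0.154%) and 1 lower (0.154%) in S+, and 81 had an unadjusted p below 0.05 in the same test. The groups overlapped in CPM for all 4 members, and 7.68% of the genes tested did not overlap.

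The level of dre-mir-204-2, the copy within trpm1a, was 12406, 12510, 20694 and 15571 CPM in S- libraries 1 to 4. In S+ libraries 1 to 4 it was 14924, 13741, 18432 and 14005 CPM. The highest library of each group was number 3, and the whole S+ range lay inside the S- range. The means were 15295 ± 3887 CPM in S- and 15275 ± 2165 CPM in S+ (SD, n = 4 each). The log2 fold change was 0.02 (standard error 0.18, limma adjusted p = 0.969), with a 95% interval from -0.38 to 0.43.

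The copy within trpm3, dre-mir-204-1, had 5764, 5736, 8444 and 7533 CPM in S- libraries 1 to 4 and 6534, 6377, 7995 and 6099 CPM in S+ libraries 1 to 4. Library 3 was again the highest of each group, and the S+ values lay inside the S- range. Its means were 6869 ± 1345 CPM in S- and 6751 ± 849 CPM in S+ (SD, n = 4 each). The log2 fold change was -0.01 (standard error 0.16, limma adjusted p = 0.987), with a 95% interval from -0.37 to 0.35.

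The main miR-184 gene, dre-mir-184-2, had 1737, 1560, 2088 and 2085 CPM in S- libraries 1 to 4 and 1675, 1866, 2093 and 2142 CPM in S+ libraries 1 to 4. Libraries 3 and 4 were the higher ones in each group. The means were 1867 ± 263 CPM in S- and 1944 ± 216 CPM in S+ (SD, n = 4 each). The log2 fold change was 0.06 (standard error 0.14, limma adjusted p = 0.864), with a 95% interval from -0.25 to 0.38.

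**Figure D2:**
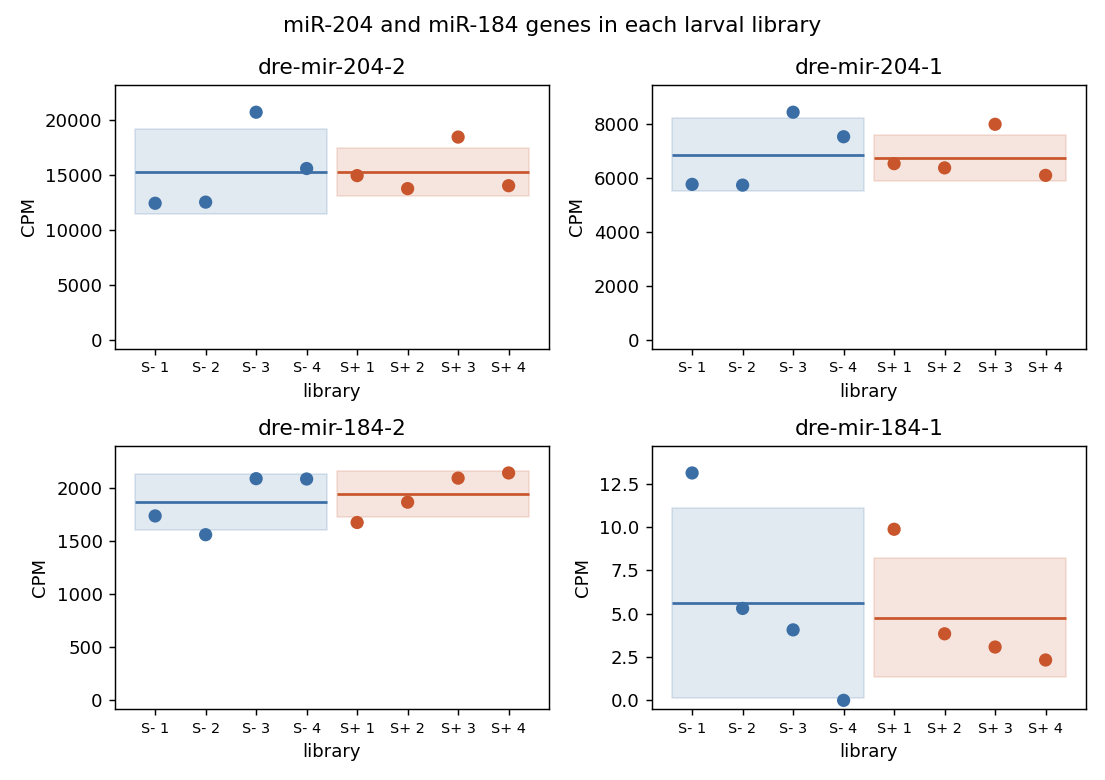
CPM of the miR-204 and miR-184 genes (one panel each, axes include 0) in the 4 S- (blue) and 4 S+ (orange) libraries; points are libraries, lines are group means and bands are 1 SD to either side. The groups overlap for each gene, and libraries S- 3 and S+ 3 hold the highest dre-mir-204-1 and dre-mir-204-2 values of their group.

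The minor miR-184 gene, dre-mir-184-1, had very few counts. It had 48, 24, 16 and 0 counts in S- libraries 1 to 4 and 40, 16, 16 and 8 counts in S+ libraries 1 to 4. Library S- 4 is thus listed at 0, and the other libraries had 2.33 to 13.1 CPM. All 8 counts were exact multiples of 8. This was the case for no other of the 12221 genes with a count in at least 2 libraries. How the steps of 8 arose is unknown, so the counting error of dre-mir-184-1 is unknown too and no detection limit is given for the count of 0. Its log2 fold change in limma was 0.50 (standard error 1.04, adjusted p = 0.859), with a 95% interval from -1.82 to 2.83. The sign was not stable. The mean CPM was 5.63 ± 5.49 in S- and 4.78 ± 3.45 in S+ (SD, n = 4 each), without S- replicate 4 the log2 fold change was -0.66, and with all libraries it was -0.24 in edgeR's quasi-likelihood test.

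RSEM, the program that estimated the counts, shares out a read that fits several genes, so copies of a miRNA cannot be fully told apart. The sum of the listed copies does not depend on the division among them. For miR-204 it may still depend on where reads of dre-mir-204-3 were counted. Summed miR-204 was 22165 ± 5190 CPM in S- and 22026 ± 3002 CPM in S+ (SD, n = 4 each). In the table summed by dre- name, its log2 fold change was 0.01 (limma adjusted p = 0.988 over 592 rows). The 95% interval of the fold ran from 0.760 to 1.34. Summed miR-184 was 1873 ± 260 CPM in S- and 1949 ± 213 CPM in S+ (SD, n = 4 each), with a log2 fold change of 0.07 (limma adjusted p = 0.885). The 95% interval of its fold ran from 0.826 to 1.32. Of the rows summed by name, 1 was called (0.169%), lower in S+. Changes inside these intervals were not excluded with 4 libraries a group. The intervals do not give the smallest change that could have been called, since a call needed both the fold change threshold and the adjusted p.

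**Figure D3:**
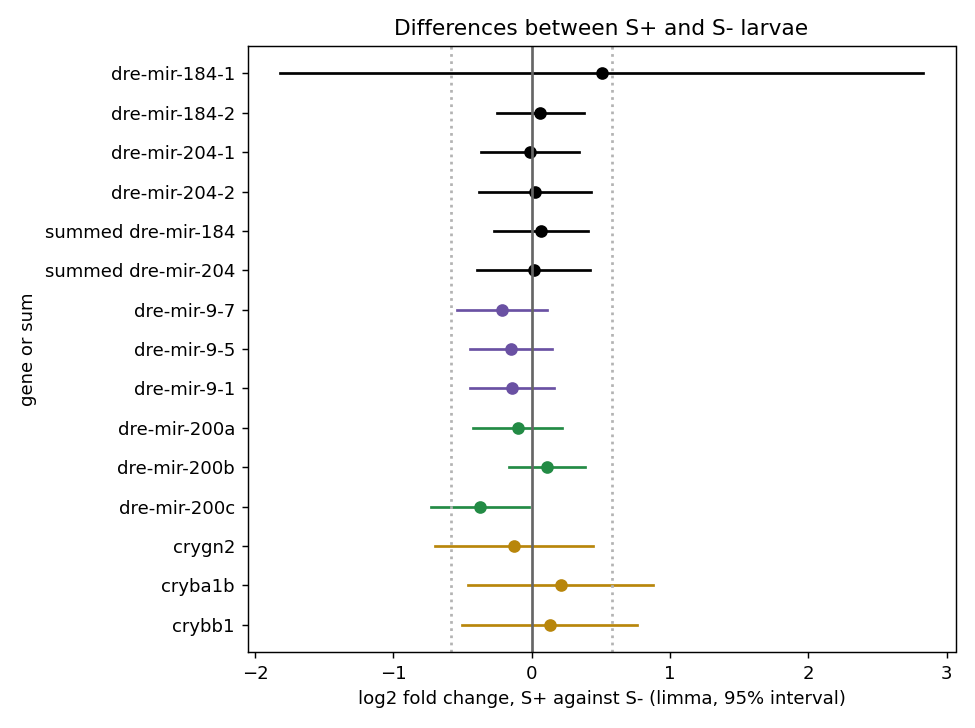
Log2 fold change of S+ against S- from limma (points) with 95% intervals (lines) for the 4 members and the sums by name (black), and for the 3 most abundant tested genes of the retinal miRNA (purple), surface epithelium miRNA (green) and lens messenger RNA (gold) lists; dotted lines mark the fold change threshold of 0.58 in either direction. The intervals of dre-mir-184-2, both miR-204 genes and both sums lie within the dotted lines, while that of dre-mir-184-1 runs from -1.82 to 2.83.

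The division of counts between the copies was uneven for both miRNAs, and no difference in it was found between the groups. dre-mir-204-2 held 68.3%, 68.6%, 71.0% and 67.4% of the summed miR-204 counts in S- libraries 1 to 4 and 69.5%, 68.3%, 69.7% and 69.7% in S+ libraries 1 to 4. Library S- 3 was the highest and S- 4 the lowest. Their 95% Wilson intervals were 70.8% to 71.3% and 67.1% to 67.7%. These intervals cover counting error only, not the division of reads by RSEM or copies of a read made in amplification. The mean share was 68.8% ± 1.55 in S- and 69.3% ± 0.680 in S+ (SD, n = 4; two-sided exact permutation test, p = 0.657). The difference of 0.50 percentage points became 1.24 without S- replicate 3 (exact permutation test, p = 0.0857) and 0.028 without S- replicate 4 (p = 0.971). dre-mir-184-2 held nearly all of the miR-184 counts. The share of dre-mir-184-1 was between 0% and 0.750%, with means of 0.321% ± 0.318 in S- and 0.262% ± 0.220 in S+ (SD, n = 4; two-sided exact permutation test, p = 0.714).

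**Figure D4:**
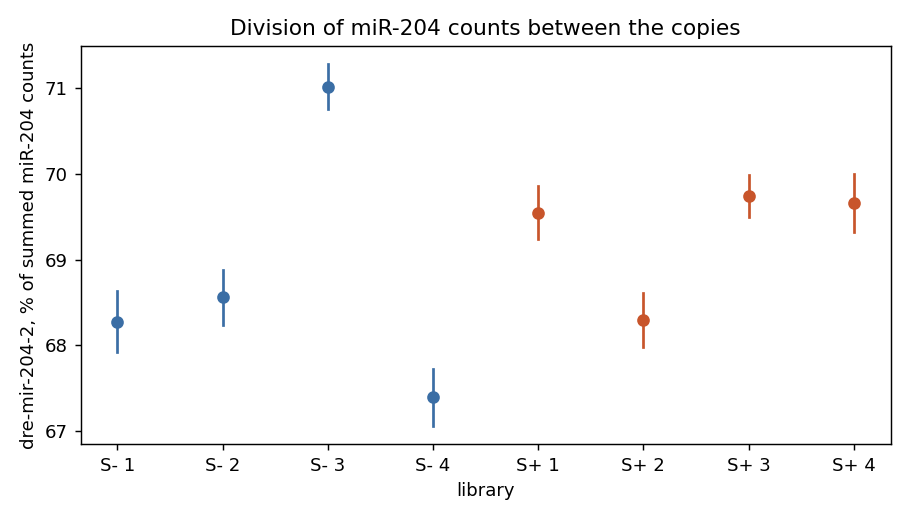
Percent of summed miR-204 counts held by dre-mir-204-2 in each library (points, S- blue and S+ orange) with 95% Wilson intervals (lines); the axis does not start at 0. S- 3 stands highest at 71.0% and S- 4 lowest at 67.4%, with the 4 S+ libraries between them.

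Within a library there were 9.38 to 13.9 summed miR-204 counts for each summed miR-184 count. The log2 ratio of miR-184 to miR-204, which does not depend on the library size, was -3.55 ± 0.18 in S- and -3.50 ± 0.21 in S+ (SD, n = 4 each). The difference of 0.05 was smaller than either SD. A two-sided exact permutation test of this difference gave p = 0.714, where the smallest p possible was 0.0286. With the 2 main tests of copy shares this made a family of 3 permutation tests, and the Benjamini-Hochberg adjusted p was 0.714 for each. Other permutation tests, such as those with a library left out, were not in this family.

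The spread between libraries was larger than the differences between the groups. The SD of log2 CPM within groups was 0.28 for dre-mir-204-2, 0.23 for dre-mir-204-1 and 0.19 for dre-mir-184-2, beside a median of 0.21 over the 96 tested miRNA genes with a mean of at least 1000 CPM. Counted from the most variable of these 96, they ranked 30, 38 and 65. For the sparse dre-mir-184-1 the SD was 1.55. Libraries S- 3 and S+ 3 held 29138 and 26428 CPM of summed miR-204, against 18170 to 23104 CPM in the other 6. The same libraries led as a share of all counts, with 3.16% in S- 3 and 3.07% in S+ 3 against 1.69% to 2.16%. They also had the highest TMM factors, 1.09 and 1.17. CPM is divided by this factor, while the share of all counts does not use it. A cause of the higher values in these libraries was not tested. Without both libraries the log2 fold change of summed miR-204 was 0.04 (limma adjusted p = 0.910), an alternative chosen after seeing the data.

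**Figure D5:**
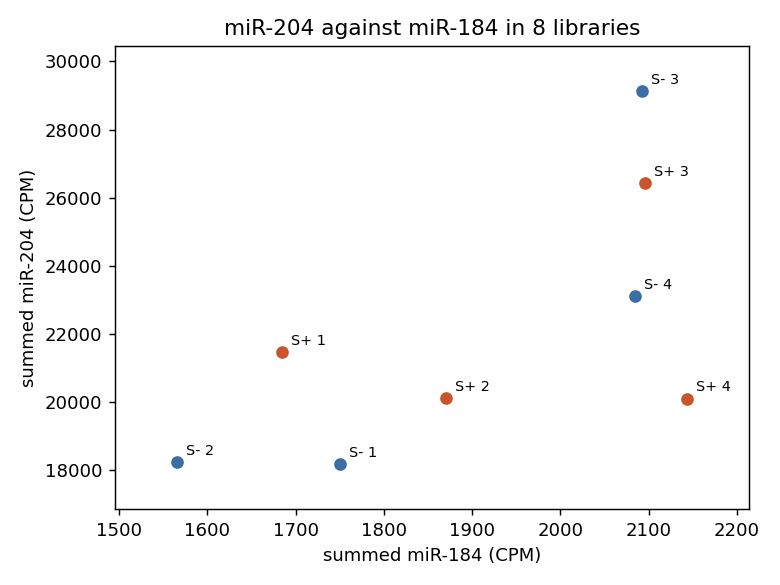
Summed miR-204 against summed miR-184, both in CPM, for the 8 libraries (S- blue, S+ orange; axes do not start at 0). S- 3 and S+ 3 stand highest in miR-204, while S+ 4 is highest in miR-184 and among the lower ones in miR-204.

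Across the 8 libraries the copies of miR-204 followed each other closely, with a Pearson r of log2 CPM of 0.96, or 0.92 over the 6 libraries other than S- 3 and S+ 3. RSEM may have divided shared reads between them. Summed miR-204 and summed miR-184 followed each other less closely, with r = 0.66 and Spearman rho = 0.48. All of these points share a library, its size and its scaling factor, and r is given as a description only. The rows whose pattern was most like summed miR-204 were MIR23B (ENSDARG00000081915, r = 0.91), dre-mir-429b (r = 0.89) and the lens gamma crystallin crygm2d21 (r = 0.82), of 591 rows. Over the 6 libraries without S- 3 and S+ 3, the furthest from the median of summed miR-204, these were 0.62, 0.70 and 0.44. Such a fall was likely in advance for rows picked for the highest r. crygm2d21 had 37 and 40 counts in S- 3 and S+ 3 and 8 to 21 counts in the others. The rows most like summed miR-184 were the snoRNA genes BX470163.1 (r = 0.88) and CR339054.2 (r = 0.83), each with no more than 144 counts in a library, and dre-mir-130b (r = 0.82). Over the 6 libraries without S- 2 and S+ 1, the furthest from the median of summed miR-184, these were 0.68, 0.94 and 0.57.

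Fragments of the eye messenger RNAs listed were scarce, and of these lists only the lens list had genes that passed the filter. Of 7 lens genes listed, 3 passed the filter, the crystallin genes crybb1, cryba1b and crygn2, which encode structural proteins of the lens fibre. None was called, and their log2 fold changes were 0.13, 0.21 and -0.13. Over all 27 crystallin genes tested, a set taken after the values had been seen, 0 were called, beside 0.307% of all genes tested. Of the crystallin genes 11 had values above 0 and 16 below, with a median log2 fold change of -0.05. The lowest adjusted p among them was 0.195, for crygm2d5 with a log2 fold change of -0.90, the lowest of the 27, and the highest was 1.76 for crygm2d2. The lens list summed to 18.6 to 30.3 CPM in S- and 23.3 to 28.8 CPM in S+. S- 3 held 30.3 CPM, the highest of S-, while S+ 3 held 24.6 CPM, which was not the highest of S+. cryaba was at 0 in all libraries and cryaa had 1 count at most. The retinal pigment epithelium list reached no more than 3.12 CPM in a library, with rlbp1b and tyr at 0. The photoreceptor list reached no more than 3.56 CPM, with opn1lw1 at 0.

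No miRNA gene on the lists named retinal and surface epithelium was called. The libraries were of whole larvae, so neither list measures these tissues alone. The retinal list held miR-9, miR-124, miR-181a, miR-181b, miR-182 and miR-183, with no row matched to miR-96. Of it 19 genes were tested and 0 were called, beside 2 (0.307%) of all 651 genes tested. With a share this small, 0 calls among so few genes do not set either list apart. Of the 19 genes, 8 had values above 0 and 11 below. Their median log2 fold change was -0.13, beside -0.02 over all genes tested. Its most abundant genes were the miR-9 copies dre-mir-9-7, dre-mir-9-5 and dre-mir-9-1, known from neural progenitors, with log2 fold changes of -0.21, -0.15 and -0.14. Beyond the fold threshold of 0.58 were 4 genes that missed the adjusted p, and they are named here after their values had been seen. These were dre-mir-124-1 (-1.19, limma adjusted p = 0.116) and dre-mir-124-4 (-0.97, adjusted p = 0.166), copies of a neuronal miRNA, and dre-mir-9-3 (-0.61, adjusted p = 0.534) and the sparse dre-mir-9-2 (0.84, adjusted p = 0.552). An unadjusted p under 0.05 was found for 3 of the 19 genes, dre-mir-124-1, dre-mir-124-2 and dre-mir-124-4, beside 81 of all 651 genes tested. The groups did not overlap in CPM for 2 of the 19, dre-mir-124-1 and dre-mir-124-2 (-0.41, limma adjusted p = 0.188). Over all genes tested 7.68% did not overlap. The copies dre-mir-124-3, dre-mir-124-5 and dre-mir-124-6 had log2 fold changes of -0.06, 0.10 and 0.07. Per library, dre-mir-124-1 held only 36 to 151 counts, while dre-mir-124-2 held 2881 to 4527. RSEM may have divided shared reads between the miR-124 copies. Summed by dre- name, miR-124 stood at -0.26 on the log2 scale (limma unadjusted p = 0.0752, adjusted p = 0.431 over 592 rows) and was not called. The surface epithelium list held miR-141, miR-200a, miR-200b, miR-200c, miR-203a, miR-203b, miR-205 and miR-429. Of it 9 genes were tested and 0 were called, 3 with values above 0 and 6 below, with a median of -0.05. An unadjusted p under 0.05 was found for 1 of them in limma, dre-mir-200c. Without S- replicate 4 the medians of the retinal and surface epithelium lists were -0.038 and 0.042, beside -0.033 over all genes tested. The most abundant genes of the surface epithelium list were the epithelial dre-mir-200a, dre-mir-200b and dre-mir-200c. They had log2 fold changes of -0.10, 0.11 and -0.37, and limma adjusted p values of 0.778, 0.743 and 0.352. Tissues other than the eye were present in each library. The muscle miRNAs (dre-mir-1-2, dre-mir-133a-1, dre-mir-133a-2 and dre-mir-206-1, without the row mir1-1) summed to 29850 to 34839 CPM in S- and 31663 to 32848 CPM in S+. Liver miR-122 lay between 1564 and 2110 CPM, and the erythroid miR-144 and miR-451 between 2639 and 4640 CPM. These lists gave 0 calls, beside the 0.307% called over all genes tested. The groups did not overlap in CPM for dre-mir-206-1 (log2 fold change 0.31, limma adjusted p = 0.231) and the sparse dre-mir-133a-1 (2.25, adjusted p = 0.290). For dre-mir-1-2 (0.14) and dre-mir-133a-2 (-0.14) they overlapped.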

How the data were processed

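Small RNA was measured in 8 pools of larvae, grouped by the sample labels. Per the labels and the study's methods, the authors trimmed reads with Trim Galore 0.6.6, mapped them to GRCz11 with STAR 2.7.8a and estimated counts per Ensembl gene with RSEM 1.3.0. The deposited values are these estimated counts in whole numbers, not normalized. The methods describe an mRNA preparation with molecular identifiers beside small RNA reads and no deduplication, so counts were taken as reads. All 8 columns were mapped by label. Each replicate was the progeny of a separate crossing.

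Counts were filtered with filterByExpr (minimum count 10), scaled with TMM factors (edgeR 4.0.16) and compared with limma 3.58.1 after voom in R 4.3.3. P values were adjusted over all genes tested. log2 CPM used a prior count of 2. Sums were fitted in a table summed by miRNA name, in which only copies with dre- symbols were merged. The fit was run on simulated data. The changes simulated were larger than those of the members, so this does not show how small a change could be found. Genes named were the members, host candidates, the 3 most abundant genes of the retinal and epithelial lists, and the 3 rows most like each sum. crybb1, cryba1b, crygn2 and marker genes at or near 0 come from the marker list; dre-mir-429a and dre-mir-429b were taken as miR-429. The miR-124 genes and their sum, dre-mir-9-2, dre-mir-9-3, further crystallin genes and single muscle miRNA genes were named after their values had been seen. Members and lists were chosen with earlier results of these data known. Alternatives were DESeq2 1.42.0, the quasi-likelihood test of edgeR, other scalings and filters, miRNA genes only, a replicate block and libraries left out.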

Additional observations from a re-analysis of the deposited data

Results flagged for a closer look

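Of 18 groups of 4 libraries examined with Dixon's test at the 95% level, 1 had a library apart from the others. The share of dre-mir-204-2 in the summed miR-204 counts was 68.3% in S+ 2, while the other S+ libraries held 69.5% to 69.7%. The gap from S+ 2 to the nearest library was 0.864 of the S+ range, where the test's limit is 0.829. Chance gives about 1 such group in 20.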

How the results depend on the processing

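No miR-184 or miR-204 gene was called under any of the alternatives run. The sign of their small log2 fold changes was not stable. With edgeR's quasi-likelihood test the log2 fold changes of dre-mir-184-1, dre-mir-204-2 and summed miR-204 were -0.24, -0.0019 and -0.0071, and with DESeq2 they were -0.24, -0.014 and -0.011. With every gene of at least 1 count, dre-mir-204-2 had -0.028 and summed miR-204 -0.040, and with at least 10 counts in every library summed miR-204 had -0.039, where dre-mir-184-1 was not tested. With miRNA genes only dre-mir-204-1 had 0.024, and without S- replicate 3 and S+ replicate 3 together, added after the data had been seen, 0.029. With single libraries left out the range was -0.66 to 1.09 for dre-mir-184-1, -0.034 to 0.12 for dre-mir-184-2, -0.10 to 0.096 for dre-mir-204-1, -0.082 to 0.18 for dre-mir-204-2, -0.056 to 0.13 for summed miR-184 and -0.11 to 0.13 for summed miR-204. It was -0.037 to 0.11 for the log2 ratio of miR-184 to miR-204 and -0.17 to 0.084 percentage points for the share of dre-mir-184-1, and 0.028 to 1.24 points for the share of dre-mir-204-2. The retinal list median ran from -0.20 without S- replicate 2 to -0.038 without S- replicate 4. In these settings the median over all genes tested was 0.0085 and -0.033. The surface epithelium median ran from -0.12 to 0.042, above 0 only without S- replicate 4.

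The number of genes called was 30 of 651 tested with DESeq2 and 1 of 651 with library size only. It was 79 of 18338 with every gene of at least 1 count and 7 of 271 with miRNA genes only. Without S- replicate 3 and S+ replicate 3 together it was 5 of 635. DESeq2 size factors gave 0 in limma, with 79 genes at an unadjusted p below 0.05. With single libraries left out the number called was 0 to 3 of 671 to 720 genes tested. It was 0 without S- replicate 1, S- replicate 2, S+ replicate 1 or S+ replicate 2. There an unadjusted p under 0.05 in limma was found for 71 to 78 genes. The cause was not tested, for these counts or for the signs above.

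The replicate block gave 9 calls among 651 genes tested, no member among them. Its log2 fold changes were -0.23 for dre-mir-184-1, 0.02 for dre-mir-204-2, 0.06 for summed miR-184 and 0.01 for summed miR-204. Same-numbered libraries come from different crossings, and whether they share anything beyond a number is not known from the labels. Their deviations correlated at 0.16, -0.16, 0.25 and 0.03 for numbers 1 to 4. The mean was 0.07. For pairs of unlike number it was -0.02, which is no separate baseline, since deviations from a group mean cancel out within the group.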
